A study of Bos taurus with 24 samples.

Results

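Solute carriers (SLC) are membrane proteins that move small molecules across the cell surface or across the membranes of organelles, and their genes are numbered by family. The genes described here are those of the bovine blastocyst table whose symbol starts with SLC and a digit and which had at least 15 counts in every embryo of at least 1 of the 3 culture conditions. Of 333 such symbols, 116 reached this limit, out of 24621 genes listed and 7557 genes that reached the same limit. Among the SLC symbols, the members were therefore selected on their level, the lowest count in a group, and not on a difference. The SLC genes as a set were chosen with earlier results of these data known. The test of SLC28A3 and the share of members called may therefore not be independent of that choice. A gene that reached the limit in only 1 of the groups compared had at least 1 embryo under it in the other. This makes a higher level in the group that passed more likely, but does not fix it. SLC9A3R1 and SLC9A3R2, which encode scaffold proteins, were left out by name. Of the symbols that did not reach the limit, 8 had no count in any embryo. SLC7A6OS, a member by its symbol, is named after the carrier gene that it overlaps and does not encode a carrier.

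The blastocyst is the stage at which the embryo consists of an outer epithelium, the trophectoderm, and an inner cell mass. Sodium-coupled carriers of the trophectoderm take up amino acids, nucleosides and other nutrients from the fluid around the embryo, and facilitative carriers let glucose and nucleosides pass down their gradients. Carriers of the inner mitochondrial membrane exchange nucleotides and metabolic intermediates, and those of the endoplasmic reticulum and Golgi deliver nucleotide sugars and other substrates for glycosylation.

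Single early blastocysts from Holstein cattle were sequenced, 8 in each of 3 groups, and each embryo was 1 replicate. In vivo derived embryos, 5 male and 3 female and labelled A, were flushed from superovulated cows that were inseminated with semen of a single bull. Both in vitro groups came from oocytes of slaughterhouse ovaries that were fertilized in vitro with semen of the same bull. Serum embryos, 3 male and 5 female and labelled B, had 20% fetal bovine serum during maturation and 5% during culture. Serum-free embryos, 5 male and 3 female and labelled C, were matured with epidermal growth factor and cultured with 0.4% bovine serum albumin and a supplement of insulin, transferrin and selenium. The paper lists added L-glutamine and Na-pyruvate in the maturation medium of serum embryos and not in that of serum-free embryos. Maturation and culture media changed together. In vivo and in vitro embryos differed in donors, superovulation, oocyte source, the place of fertilization and the days of collection. These factors cannot be told apart. The labels do not give an embryo's cow, in vitro experiment or sequencing lane, and no value could be computed within them. The in vivo derived embryos came from 3 cows and the in vitro embryos from 3 experiments, so embryos of a group share them, and the p-values measure the spread between single embryos and not between cows or experiments.

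The counts of an embryo summed to between 3253051 and 9000447, and the members took between 1.09% and 2.05% of them. Levels are given as CPM, the counts of a gene scaled to a common library size after TMM normalization. Log2 fold changes come from edgeR's quasi-likelihood test, and p-values were adjusted by Benjamini-Hochberg over every gene in the fit. A gene was called if the adjusted p-value was below 0.05 and the fold change reached 2. Serum embryo B2 stood apart from its group. It had the lowest level of its group for 36 of 116 members, against 2 to 18 members in the other serum embryos, and 8 members were at 0 counts in it. It was also the highest of its group for 23 members, and serum-free embryo C7 was the highest of its group for 39, against 3 to 16 in the other serum-free embryos. Of the 39 members under the limit in serum embryos, 10 were so through B2 alone, among them SLC44A2, SLC39A4, SLC15A2 and SLC30A2.

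The carriers of nucleosides are described first. Nucleosides are building blocks of nucleic acids that a cell can salvage from outside. SLC28A3, a sodium-coupled carrier of purine and pyrimidine nucleosides, was present in every in vivo derived embryo and nearly absent from serum embryos. Its level was 68.8, 101, 80.5, 46.9, 77.5, 42.1, 50.02 and 8.62 CPM in in vivo derived embryos A1, A2, A3, A4, A6, A7, A8 and A9. In serum embryos B1 to B8 it was 0.564, 0, 1.13, 1.79, 0, 4.0, 2.46 and 4.3 CPM. Even the lowest in vivo derived embryo lay above the highest serum embryo, and the 8 serum libraries held 72 counts of this gene together against 2195 in the 8 in vivo derived libraries. SLC28A3 fell by 5.04 ± 0.654 on the log2 scale (SE, n = 8 per group, edgeR adjusted p = 6.29e-05), a fold of 32.8. SLC28A3 reached the count limit in vivo and not in serum embryos, and SLC28A2 in serum and not in vivo, so each entered this comparison through the group where it was high.

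Serum-free embryos had SLC28A3 at levels that spanned most of the in vivo range. The values were 16.1, 7.63, 22.6, 72.7, 31.1, 87.5, 17.2 and 33.3 CPM in C1, C2, C3, C4, C6, C7, C8 and C10. Their mean of 36.0 ± 28.7 CPM (SD, n = 8) was not separable from the in vivo mean of 59.5 ± 28.6 CPM, with a log2 fold change of -0.73 ± 0.434 (SE) and an edgeR adjusted p of 0.35. Every serum-free embryo was above every serum embryo, and this difference passed the test, at 4.31 ± 0.712 on the log2 scale (edgeR adjusted p = 0.00256).

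SLC28A2, the sodium-coupled carrier that prefers purine nucleosides, went the other way. It was at 1.09, 3.5, 0, 4.29, 0, 3.15, 3.13 and 0 CPM in A1, A2, A3, A4, A6, A7, A8 and A9. Serum embryos B1 to B8 had 10.7, 73.8, 28.3, 16.3, 107, 25.9, 45.5 and 38.7 CPM. Serum-free embryos, in the same order as above, had 11.5, 15, 7.09, 7.25, 5.77, 4.62, 10.9 and 6.08 CPM. In vivo derived embryos were thus lowest, without overlap with either in vitro group, and every serum embryo except B1 exceeded all serum-free embryos. SLC28A2 rose by 4.48 ± 0.71 on the log2 scale in serum embryos (edgeR adjusted p = 0.000323) and by 2.16 ± 0.579 in serum-free embryos (edgeR adjusted p = 0.0319). The direct comparison of the media gave a lower level in serum-free embryos, by a log2 fold change of -2.33 ± 0.421 (edgeR adjusted p = 0.00341). The serum-free call was lost without A1 or without C2, where the edgeR adjusted p reached 0.0599. It was also lost with no count limit and in a single fit over all 24 embryos. The same held in male or female embryos alone and with a block for the replicate number. SLC28A2 entered that comparison through the serum-free embryos alone, since it did not reach the limit in vivo.

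SLC29A1, a facilitative nucleoside carrier, had 378 ± 86.8 CPM in in vivo derived embryos (SD, n = 8), 110 ± 63.0 CPM in serum embryos and 293 ± 91.6 CPM in serum-free embryos. It fell by 1.78 ± 0.291 on the log2 scale in serum embryos, again without overlap (edgeR adjusted p = 0.000383), and was higher in serum-free than in serum embryos by 1.42 ± 0.316 (edgeR adjusted p = 0.00917). Of the other 2 nucleoside carriers, SLC29A2 had a log2 fold change of -0.85 in serum embryos and was not called, and SLC29A3 did not reach the limit in either of those groups. UCK2, the kinase that traps uridine and cytidine inside the cell, belonged to a list of proteins that work with carriers. It rose by 1.14 ± 0.279 in serum embryos (edgeR adjusted p = 0.00592), and DCK, which phosphorylates deoxycytidine, had a log2 fold change of -0.34 that was not called.

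**Figure D1:**
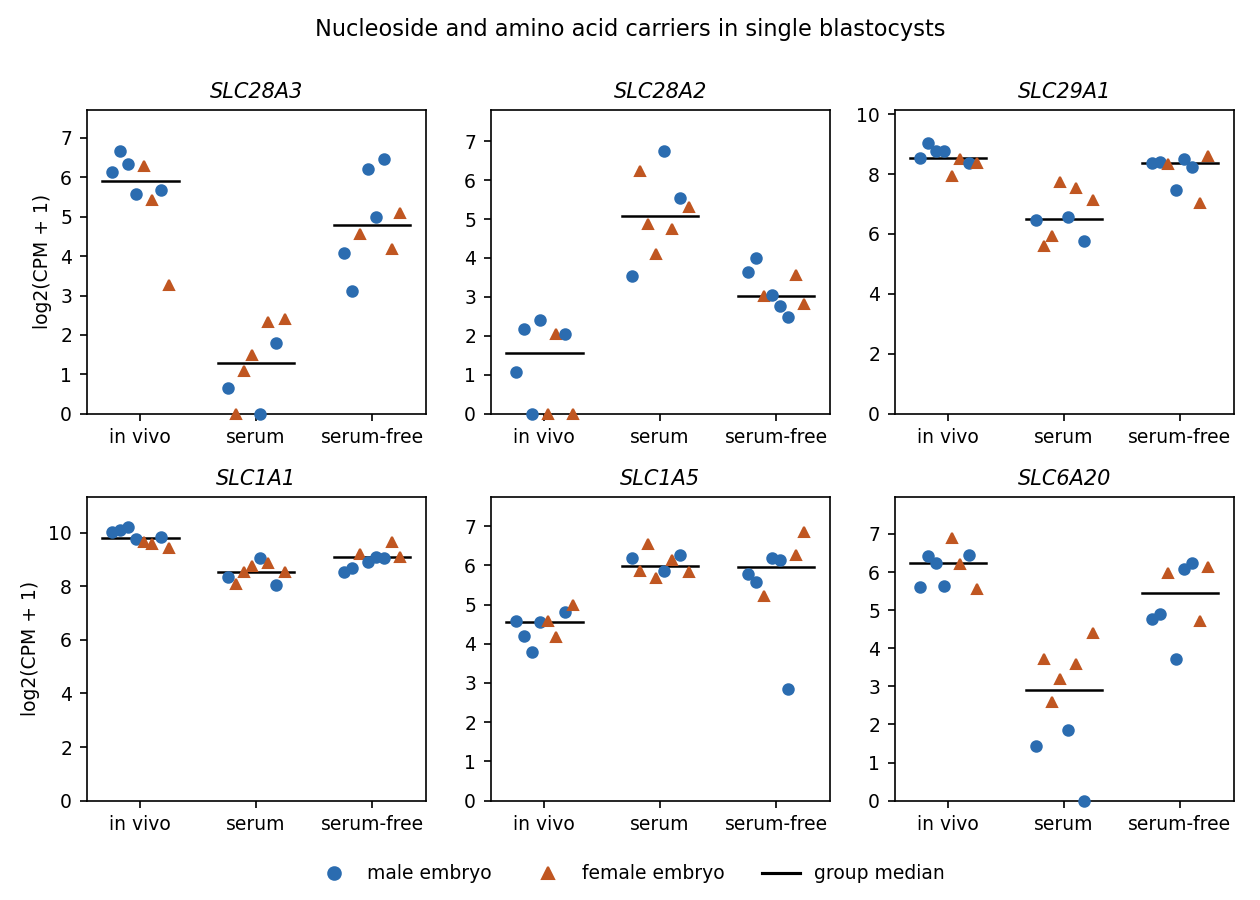
Level of 6 carriers in each of the 24 embryos, as log2(CPM + 1), with circles for male and triangles for female embryos and a bar for the group median. SLC28A3, SLC29A1, SLC1A1 and SLC6A20 were lower in every serum embryo than in any in vivo derived embryo, and SLC28A2 and SLC1A5 were higher in every serum embryo.

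Between in vivo derived and serum embryos 113 members could be tested and 26 were called, or 23.0%, against 13.8% of the 7339 genes tested. Of these, 10 were higher in serum embryos, where 6.43% of all genes tested were called in that direction, and 16 were lower, against 7.34%. The median log2 fold change of the members was -0.29, against 0.01 over all genes. The choice of members, made with earlier results of these data known, may raise this share. Those at the limit in only 1 of the groups had at least 1 embryo under it in the other. Where both groups reached the limit, 11 of 67 members were called, against 9.7% of all such genes, and their median was -0.02 against 0.09. Of these groups, SLC28A3, SLC6A20, SLC5A11, SLC7A4, SLC7A7, SLC35F5, SLC44A2, SLC31A2, SLC38A7, SLC19A2 and SLC26A6 were called and reached the limit in vivo alone. SLC28A2, SLC12A2, SLC25A35 and SLC23A2 were called and reached it in serum embryos alone. Each of them entered the fit through the group where it was high. The 2 groups did not overlap for 13 members, 10 of them called, and 7.11% of all genes tested had groups that did not overlap.

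Among the 20 amino acid carriers tested, 2 rose and 6 fell in serum embryos, where 6.43% and 7.34% of all genes were called in these directions. SLC6A20, a sodium-coupled carrier of proline, fell most. It was at 46.2 to 118 CPM in in vivo derived embryos (median 74.0) and at 1.69, 12.1, 4.97, 8.23, 2.62, 11, 0 and 20.3 CPM in B1 to B8, with a log2 fold change of -3.23 ± 0.528 (edgeR adjusted p = 0.000383). The 2 groups did not overlap for this gene. SLC38A2, which takes up small neutral amino acids, fell from 638 ± 114 to 213 ± 117 CPM (SD, n = 8) without overlap, with a log2 fold change of -1.58 ± 0.259 (edgeR adjusted p = 0.000394). SLC38A7, a lysosomal exporter of glutamine, had a log2 fold change of -1.59 ± 0.399 (edgeR adjusted p = 0.00691), and SLC7A4, a family member whose substrate is not established, of -2.50 ± 0.688 (edgeR adjusted p = 0.0115). SLC7A4 was at 0 counts in B2 and B7. SLC6A20, SLC7A4 and SLC38A7 entered this comparison through the in vivo group alone, as did SLC7A7 below.

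In 2 amino acid families, members were called in opposite directions. SLC1A5, which exchanges glutamine and other neutral amino acids, was at 22.8, 17.3, 12.9, 22.3, 23.0, 16.9, 26.9 and 30.9 CPM in A1, A2, A3, A4, A6, A7, A8 and A9. It was at 71.3, 56.5, 91.6, 50.4, 56.6, 68.7, 76.2 and 55.8 CPM in B1 to B8, where every embryo was above every in vivo derived one. The rise was 1.61 ± 0.202 on the log2 scale (edgeR adjusted p = 5.3e-05) and stayed between 1.52 and 1.70 whichever single embryo was left out. SLC1A1, which carries glutamate and aspartate and was picked for naming after its values were seen, fell from 920 ± 169 to 380 ± 95.9 CPM, without overlap, by 1.27 ± 0.163 (edgeR adjusted p = 5.6e-05). SLC7A7 and SLC7A6 encode alternative light chains of the exchangers that swap cationic for neutral amino acids. SLC7A7 was at 27.1 ± 15.8 CPM in vivo and 4.84 ± 4.84 CPM in serum embryos, with a log2 fold change of -2.47 ± 0.515 (edgeR adjusted p = 0.00218). SLC7A6 was at 20.6 ± 8.46 and 49.4 ± 15.9 CPM, with a log2 fold change of 1.26 ± 0.278 (edgeR adjusted p = 0.00302). SLC7A6 overlaps SLC7A6OS, which also rose by 1.28 ± 0.279, and because the libraries did not keep strand their counts may not be separate. The same holds for SLC1A1 and the overlapping SPATA6L. SLC3A2, the heavy chain that both light chains need, was at 332 CPM in vivo and 227 CPM in serum embryos, with a log2 fold change of -0.55 ± 0.286 that was not called (edgeR adjusted p = 0.153).

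Of 24 families with at least 2 members tested, 17 had a called member and 4 had calls in both directions, namely SLC1, SLC5, SLC7 and SLC28. This count was made after the values were seen, and no like count was made over all genes.

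Of 6 sugar carriers tested, 1 was called in serum embryos, against 13.8% of all genes. The class had a median log2 fold change of -0.56 there. SLC5A11, which takes up myo-inositol with sodium, was at 7.22 to 53.8 CPM in in vivo derived embryos and at 9.3, 1.66, 0, 11.4, 0, 1.04, 0.307 and 6.63 CPM in B1 to B8. The groups overlapped through A8, the lowest in vivo derived embryo, and the log2 fold change was -3.03 ± 0.754 (edgeR adjusted p = 0.00646). SLC37A3, named after its values were seen, was at 162 ± 25.2 CPM in vivo and 88.0 ± 20.1 CPM in serum embryos, without overlap, and its log2 fold change of -0.88 passed the test below the fold limit (edgeR adjusted p = 0.00073). The glucose carriers SLC2A1 and SLC2A3 were not called in serum embryos.

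Carriers of vitamins and choline were called in both directions, 2 of the 6 tested up and 2 down, against 6.43% and 7.34% of all genes. SLC23A2, which takes up ascorbate, rose by 1.36 ± 0.399 on the log2 scale (edgeR adjusted p = 0.0162). SLC5A6, which takes up biotin and pantothenate, rose by 1.12 ± 0.262 (edgeR adjusted p = 0.00462). It was at 155 to 197 CPM in in vivo derived embryos and at 186, 758, 225, 293, 629, 283, 433 and 186 CPM in B1 to B8, so that B2 and B5 were highest. Its fold change was under 2 without either of them, down to 0.91 on the log2 scale, and SLC5A6 overlaps ATRAID, whose reads may not be separate. SLC44A2, a choline carrier-like protein, was at 269 to 430 CPM in vivo and at 76.9, 0.475, 33.5, 158, 59.9, 146, 23.3 and 226 CPM in B1 to B8, without overlap. It fell by 1.90 ± 0.556 (edgeR adjusted p = 0.0162), and B2 was at the level of single counts. The thiamine carrier SLC19A2 had a log2 fold change of -1.44 ± 0.483 (edgeR adjusted p = 0.0325), a call that was lost on leaving out any of A1, A3, A4, A6, A8, B4 or B7, with adjusted p-values up to 0.0688.

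Of 21 metal carriers tested, 1 rose and 2 fell, against 6.43% and 7.34% of all genes. The zinc importer SLC39A6 rose from 22.3 ± 5.72 to 61.7 ± 15.4 CPM without overlap, by 1.47 ± 0.214 on the log2 scale (edgeR adjusted p = 0.000167). The copper protein SLC31A2 fell from 19.9 ± 2.4 to 6.02 ± 4.96 CPM, by 1.71 ± 0.433 (edgeR adjusted p = 0.00726). SLC11A2_1, 1 of 2 rows with the symbol of the iron importer, fell by 1.02 ± 0.283 (edgeR adjusted p = 0.0116) and was named after its values were seen. The other row, SLC11A2_2, was tested and not called, at 6.25 to 19.3 CPM in vivo and 1.66 to 18.6 CPM in serum embryos. TFRC, the receptor that brings in iron with transferrin and a gene of the partner list, rose by 1.13 ± 0.306 (edgeR adjusted p = 0.0104). Among 13 carriers of ions and protons, SLC12A2, the cotransporter of sodium, potassium and chloride, rose by 2.20 ± 0.648 (edgeR adjusted p = 0.0166). It was at 4.23, 82.2, 57.7, 8.05, 8.77, 9.74, 19.0 and 13.3 CPM in B1 to B8 against 0 to 9.62 CPM in vivo, so the mean rested on B2 and B3, and the call was lost with sex as a covariate or in male embryos alone. The anion exchangers SLC26A6 and SLC4A2, named after their values were seen, had log2 fold changes of -1.35 and -1.06 and were called.

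Of 23 mitochondrial carriers tested, SLC25A35, whose substrate is not established, was the 1 called in serum embryos, where 13.8% of all genes were called, and no difference between classes was tested. SLC25A35 was at 3.44 ± 3.57 CPM in vivo and 13.3 ± 6.8 CPM in serum embryos. Its log2 fold change was 1.94 ± 0.633 (edgeR adjusted p = 0.0279), and without B3 the adjusted p was 0.0568. SLC25A35 overlaps RANGRF, and reads of the pair may not be separate. SLC25A6, which exchanges ADP and ATP across the inner membrane, was at 1245 ± 210 CPM in vivo and 719 ± 194 CPM in serum embryos, without overlap, and its log2 fold change of -0.79 passed the test below the fold limit (edgeR adjusted p = 0.00277). In the endoplasmic reticulum and Golgi class, 1 of 12 rose and 1 fell, against 6.43% and 7.34% of all genes. SLC33A1, which carries acetyl-CoA into the endoplasmic reticulum, rose by 1.02 ± 0.253 (edgeR adjusted p = 0.00638) and was just under 2-fold without A9, B2 or B5, with a lowest log2 fold change of 0.844. SLC35F5, with no established substrate, fell by 2.03 ± 0.6 (edgeR adjusted p = 0.0169) and was at 0 counts in B2 and B3. None of the 3 organic ion, 2 carboxylate and 2 lipid carriers tested was called.

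**Figure D2:**
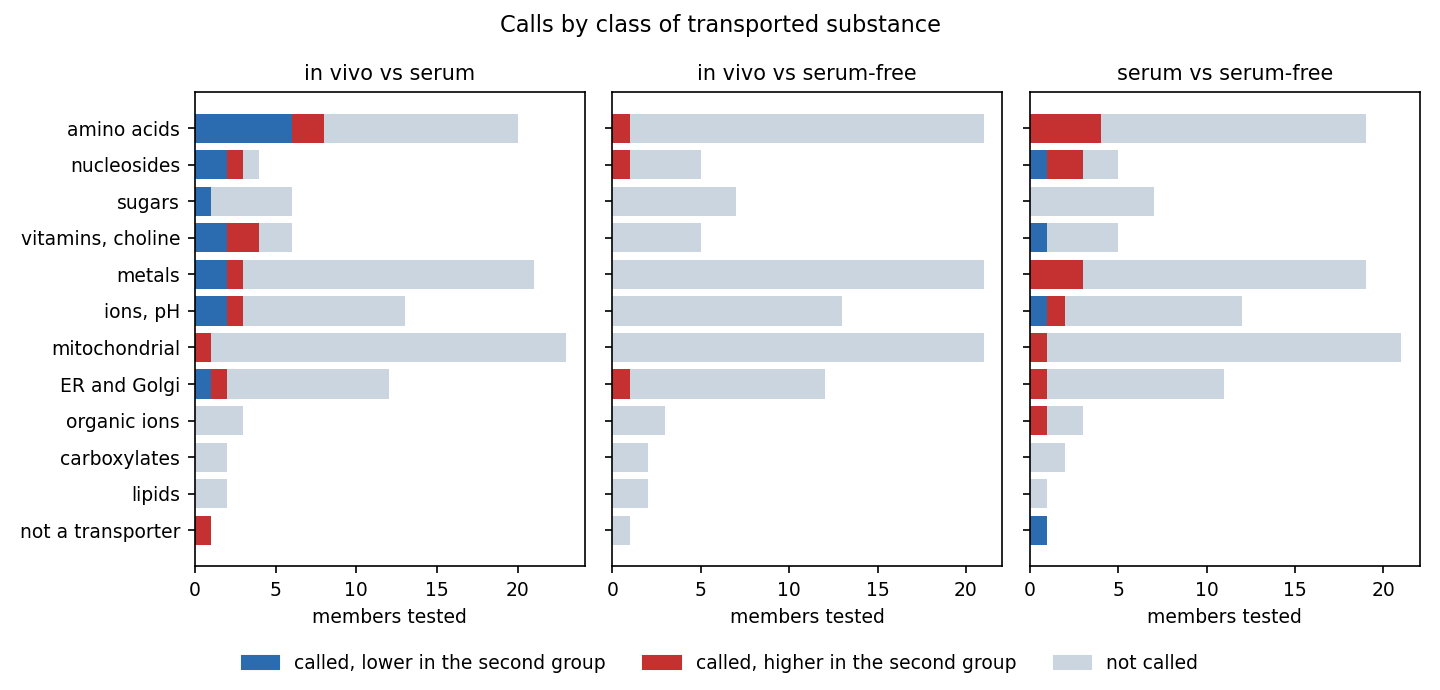
Number of members tested in each class, by the substance or compartment of the carrier, for 3 comparisons, with calls in red where the second group of the comparison was higher and in blue where it was lower. Calls between in vivo derived and serum embryos were 8 of 20 for amino acid carriers and 1 of 23 for mitochondrial carriers. Over all genes tested, 13.8% were called.

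Of the 22 members called and named by rule between in vivo derived and serum embryos, 18 were called whichever single embryo was left out. Without B2, 24 members were called and 21 of the 26 were among them.

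Marker genes of cell types were followed as well, and only some of them differed between the groups. Of 10 trophectoderm markers listed, 8 had a row, 7 could be tested and 4 were called lower in serum embryos, namely KRT8, KRT18, GATA2 and GATA3. Over all genes tested, 7.34% were called lower and 6.43% higher in serum embryos. The 8 trophectoderm markers with a row summed to 7519 to 14705 CPM in in vivo derived, 349 to 5123 CPM in serum and 4974 to 28324 CPM in serum-free embryos. KRT8 and KRT18 made up most of the sum in in vivo derived embryos. TFAP2C, at 124 to 267 CPM in vivo and 158 to 450 CPM in serum embryos, and TEAD4, at 20.7 to 41.1 and 5.7 to 85.7 CPM, had log2 fold changes of 0.32 and 0.71 and were not called. B2, B7 and B5 had the lowest sums, of 349, 456 and 525 CPM, and the defining marker CDX2 was at or near 0 in every group, at no more than 2.48 CPM. Hypoblast markers summed to 380 to 648, 38.2 to 288 and 172 to 480 CPM, with 1 of 4 tested lower in serum embryos, and inner cell mass markers to 850 to 1188, 432 to 1146 and 618 to 854 CPM, with 1 of 5 higher. In serum-free against in vivo derived embryos, 5 hypoblast markers were tested. LAMA1 was called higher and PDGFRA lower, at log2 fold changes of 3.46 and -1.01, against 1.61% and 0.588% of all genes. No trophectoderm or inner cell mass marker was called in that comparison. In a whole embryo, fewer cells of a type and less RNA per cell cannot be told apart, and the part of these markers in the members' differences was not tested. Markers of cumulus cells summed to no more than 76.0 CPM, of the genital tract epithelium to 17.3 CPM and of blood to 49.8 CPM in any embryo, and PTX3 of cumulus cells and FOXJ1 of ciliated epithelium were at 0 in all.

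The spread among embryos is given without a test. Over the 64 members at the limit in all 3 groups, the median coefficient of variation was 26.4% in in vivo derived, 43.2% in serum and 31.8% in serum-free embryos. It was 35.6% in serum embryos without B2. The coefficient was higher in serum than in in vivo derived embryos for 53 of the 64 members, and for 48 without B2. It was higher in serum-free than in in vivo derived embryos for 46.

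**Figure D3:**
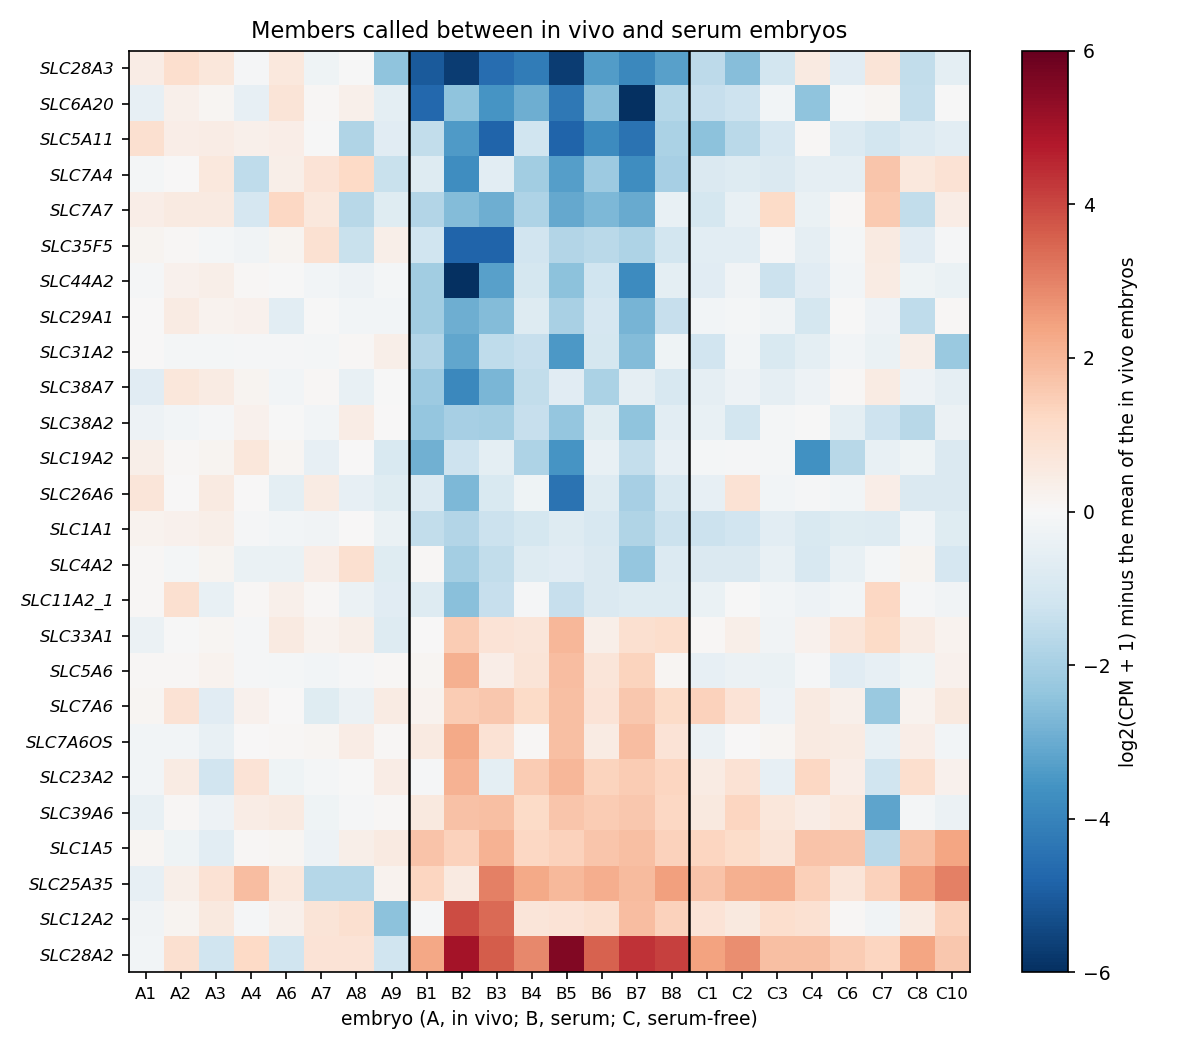
Level of the 26 members called between in vivo derived and serum embryos, in rows, in each of the 24 embryos, in columns, as the difference of log2(CPM + 1) from the in vivo mean. Blue is lower and red is higher, and SLC44A2 in B2 and SLC6A20 in B7 are among the lowest fields.

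Serum-free embryos differed from in vivo derived embryos in far fewer members. Of 113 tested, 3 were called, which is 2.65% against 2.2% of the 7314 genes tested and so close to the background. All 3 were higher in serum-free embryos, where 1.61% of all genes were called, and none was lower, where 0.588% were. Among the 90 members at the limit in both groups 2 were called, against 1.43% of such genes, and the groups did not overlap for SLC28A2 alone, against 0.889% of all genes. At an unadjusted p under 0.05, 28 members differed, or 24.8%, against 21.5% of all genes. DESeq2 and edgeR's exact test each called 6 members, 1 of them lower, or 5.31%, against 2.71% and 2.84% of all genes. The comparisons of the 2 media with in vivo derived embryos share the same 8 in vivo libraries, so their fold changes are set side by side and not counted as separate evidence.

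SLC1A5 rose in serum-free embryos too, by 1.46 ± 0.352 on the log2 scale (edgeR adjusted p = 0.0198). Its levels were 53.4, 46.7, 35.9, 71.6, 69.5, 6.16, 75.3 and 113 CPM in C1, C2, C3, C4, C6, C7, C8 and C10. C7 lay below every in vivo derived embryo and the other 7 serum-free embryos lay above all of them. The SLC1A5 call was lost in male or female embryos alone and with a block for the replicate number. The media were not separated in the direct test, with a log2 fold change of -0.15 ± 0.344 (edgeR adjusted p = 0.792). SLC35D2_1, with the symbol of a Golgi nucleotide sugar carrier, had 11.5 ± 4.86 CPM in vivo, 13.1 ± 5.87 CPM in serum and 27.2 ± 9.72 CPM in serum-free embryos. It was higher in serum-free than in in vivo derived embryos by 1.25 ± 0.277 (edgeR adjusted p = 0.0118). That call was lost in female embryos alone and with the replicate block. A further 4 members passed the adjusted p with less than a 2-fold change. SLC1A1, SLC20A1 and SLC39A10 were named for that after their values were seen, and SLC2A1 belongs to a list of embryo carriers followed below. The log2 fold changes were -0.78 for SLC1A1, -0.54 for the phosphate carrier SLC20A1, 0.42 for the glucose carrier SLC2A1 and 0.72 for the zinc importer SLC39A10.

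**Figure D4:**
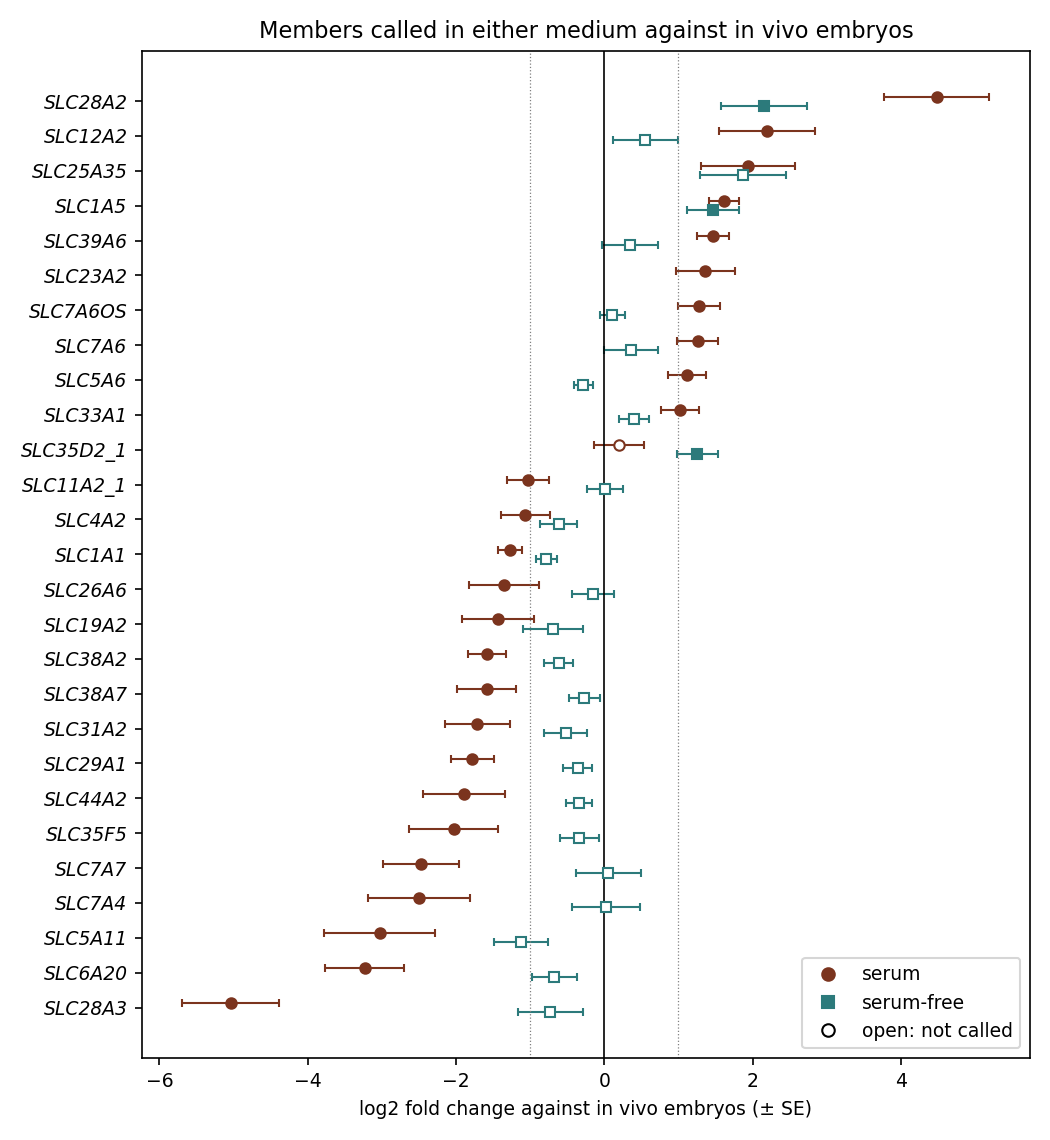
Log2 fold change against in vivo derived embryos (± SE) of the 27 members called in either medium, with circles for serum and squares for serum-free embryos, filled where called, and dotted lines at a 2-fold change. Both in vitro groups are compared with the same in vivo derived embryos, and only SLC28A2 and SLC1A5 are filled for both.

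The direct comparison of the media had 106 members tested and 17 called, or 16.0%, against 8.91% of the 7181 genes tested. The level was higher in serum-free embryos for 13 of them, a direction in which 5.36% of all genes were called, and lower for 4, against 3.55%. At the limit in both groups, 10 of 71 members were called, against 6.36% of such genes. The groups did not overlap for 3 members, 2 of them called, against 2.4% of all genes.

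Besides SLC28A3 and SLC29A1, the amino acid carriers SLC6A20, SLC7A7, SLC7A4 and SLC38A7 were higher in serum-free than in serum embryos, by 2.57, 2.54, 2.53 and 1.33 on the log2 scale. SLC28A3, SLC6A20, SLC7A7, SLC7A4 and SLC38A7 reached the count limit in serum-free and not in serum embryos. They entered this comparison through the group where they were high, as did SLC22A5 and SLC39A4 below. SLC28A2, SLC12A2, SLC5A6 and SLC7A6OS were lower, with log2 fold changes of -2.33, -1.64, -1.40 and -1.17. SLC5A6 was at 374 ± 215 CPM in serum and 141 ± 31.2 CPM in serum-free embryos (edgeR adjusted p = 0.00551). Several members called here had not been called against in vivo derived embryos in either medium. They were the sodium phosphate cotransporter SLC34A2 at 1.69 ± 0.5, the carnitine carrier SLC22A5 at 1.68 ± 0.558, the zinc carriers SLC39A4 at 1.45 ± 0.473 and SLC30A9 at 1.04 ± 0.304, and the ADP and ATP exchanger SLC25A5 at 1.19 ± 0.402, all higher in serum-free embryos. SLC11A2_1, which lay just outside the rule for naming, was higher by 1.04.

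These calls depended more on single embryos, and 10 of the 16 named by rule were lost on leaving out at least 1. SLC34A2 was at 308 CPM in C7, with the next serum-free embryo at 88.0 CPM, and without C7 its log2 fold change was 1.00 (edgeR adjusted p = 0.103). SLC39A4 and SLC25A5 were each lost without any of 13 embryos, SLC22A5 without any of 12, SLC12A2 without any of 10, SLC30A9 without any of 8 and SLC35D2_1 without any of 6. SLC12A2 was at -1.10 without B2. SLC38A7 was lost without B3, C6 or C7, SLC7A4 without C7 and SLC7A6OS without B2. The number of members called was 8 without B3, 9 without C7, 10 without B7 and 11 without B5, against 12 without B2. SLC28A3, SLC28A2, SLC29A1, SLC6A20, SLC7A7 and SLC5A6 were called in each of the 16 fits.

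A list of 18 carriers known from work on preimplantation embryos was followed whatever the outcome. Of these, 16 were in the table and 11 were tested, and SLC7A5 and SLC5A1 were not analysed here. In serum embryos SLC12A2 and SLC1A5 were called higher and SLC38A2 lower, and in serum-free embryos only SLC1A5 was called. Over all genes tested, 13.8% were called in serum embryos and 2.2% in serum-free embryos. The glucose carriers were not called in any comparison. SLC2A1 was at 440 ± 47.9, 325 ± 126 and 589 ± 123 CPM in in vivo derived, serum and serum-free embryos (SD, n = 8), and was higher in serum-free than in serum embryos by 0.87 ± 0.227 on the log2 scale (edgeR adjusted p = 0.018), short of 2-fold. SLC2A3 had 2059 to 4813 CPM in vivo and 1478 to 7511 CPM in serum embryos. SLC2A8 had 24.4 ± 4.6, 15.2 ± 10.7 and 16.7 ± 6.91 CPM in the 3 groups.

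The lactate and pyruvate carrier SLC16A1 differed little, with log2 fold changes of 0.09 ± 0.153 in serum and 0.22 ± 0.145 in serum-free embryos. Of 15 partner genes tested between in vivo derived and serum embryos, 3 rose, namely AQP3, TFRC and UCK2, and 2 fell, the mitochondrial pyruvate carrier subunit MPC1 at -1.33 ± 0.342 and the scaffold gene SLC9A3R1 at -1.89 ± 0.555. Over all genes tested 6.43% were called higher and 7.34% lower. The median over the 15 was -0.25, against 0.01 over all genes. None of the 14 tested was called in serum-free embryos, where the lowest adjusted p was that of TFRC, 0.0572. Between the media, TXNIP, which limits glucose uptake, and UCK2 were lower in serum-free embryos, by log2 fold changes of -1.71 and -1.19. In that direction 3.55% of all genes were called.

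Male and female embryos were compared over all 24 embryos with the culture condition in the model, and here genes were called at an adjusted p under 0.05 with no limit on the fold. Of 91 members tested 2 were called, or 2.2%, against 2.63% of the 6659 genes tested. Both are X-linked genes, and both were higher in female embryos. SLC6A8, the creatine carrier, had 146 ± 63.3 CPM in 11 female and 75.9 ± 39.4 CPM in 13 male embryos, with a male minus female log2 difference of -1.24 ± 0.276 (edgeR adjusted p = 0.00815). SLC25A5 had 2454 ± 1125 and 1560 ± 754 CPM, with a difference of -1.0 ± 0.252 (edgeR adjusted p = 0.0222), and without B7 its adjusted p was 0.0579. SLC10A3, the other X-linked member tested, was at -0.73 ± 0.285 and was not called (edgeR adjusted p = 0.236).

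In in vivo derived embryos, males and females were apart for both genes. SLC6A8 was at 86.2, 46.8, 54.0, 92.7 and 69.3 CPM in the males A1, A2, A3, A4 and A8 and at 230, 236 and 132 CPM in the females A6, A7 and A9. SLC25A5 was at 1308, 1092, 1588, 1939 and 1276 CPM in the same males and 2681, 3001 and 2277 CPM in the females. Serum embryos did overlap, because the female B2 was at 27.5 CPM of SLC6A8 and 258 CPM of SLC25A5, near the males B5 and B7 and below the male B1. In serum-free embryos SLC25A5 was at 1510 to 2599 CPM in males and 2728 to 4447 CPM in females, without overlap. SLC6A8 overlapped there, with the female C10 at 125.3 CPM and the male C6 at 150.9 CPM. Within in vivo derived embryos alone the differences were -1.52 and -0.88 and were called. Within serum embryos they were -1.52 and -1.42 and within serum-free embryos -0.63 and -0.70, and neither gene was called there.

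**Figure D5:**
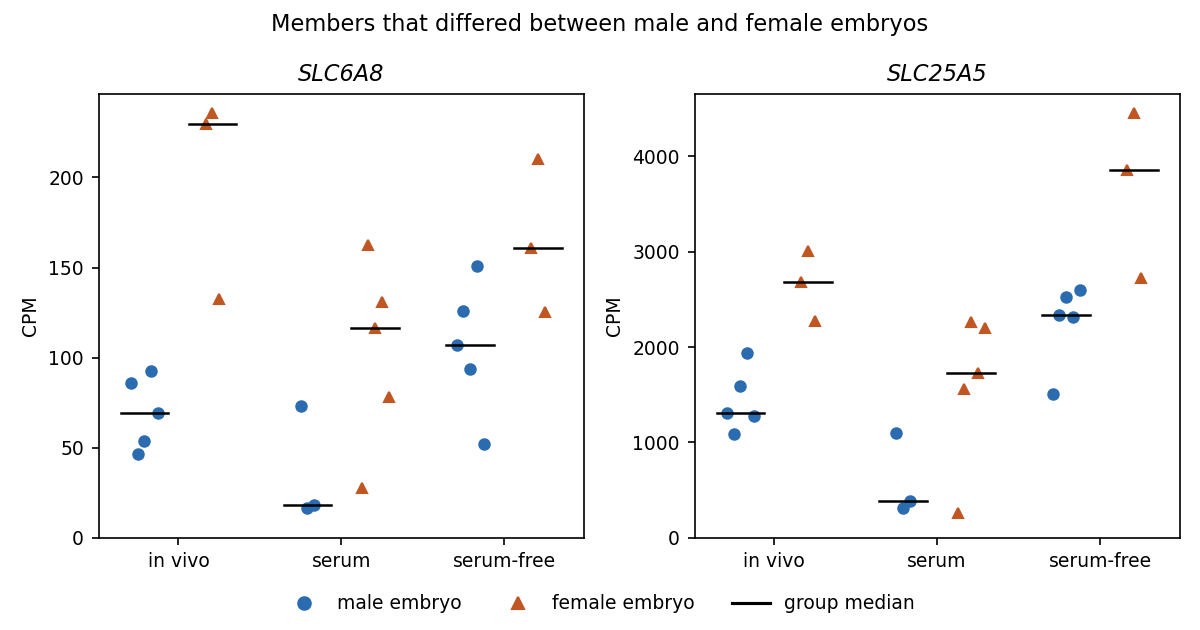
Level in CPM of SLC6A8 and SLC25A5 in each embryo by culture condition, with circles for male and triangles for female embryos and a bar for the median of each sex. Females lie above males without overlap in vivo for both genes and in serum-free embryos for SLC25A5, and the lowest female is serum embryo B2.

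The effect of culture was also compared between the sexes. Of 114 members tested for an interaction of sex and serum culture, and 115 for serum-free culture, 0 passed with edgeR or with DESeq2, and 9 and 6 had an unadjusted p under 0.05 with edgeR. These are 7.89% and 5.22% of the members, against 5.16% and 6.59% of all genes. Fitted within each sex, 26 members were called between in vivo derived and serum embryos in 5 against 3 males, or 22.8%, against 13.3% of all genes. In 3 against 5 females 1 member was called, SLC6A20, or 0.877%, against 0.418% of all genes. SLC28A3 had log2 fold changes of -6.45 in males and -4.19 in females, SLC28A2 of 4.48 and 5.09, and SLC1A5 of 1.73 and 1.48, and the female values had adjusted p-values of 0.074, 0.079 and 0.0785.

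The count limit left members on either side of a narrow margin. The lowest count in the best group was 15 for SLC12A2, SLC25A32, SLC26A2 and SLC36A1 and 16 for SLC22A5 and SLC37A1. It was 14 for SLC12A8 and SLC4A11, 13 for SLC35C2 and SLC37A4 and 12 for SLC25A24 and SLC44A1, which are not members.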

How the data were processed

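Single bovine blastocysts were sequenced after amplification of their RNA. The authors trimmed and mapped the reads to the UMD3.1 genome in CLC Genomics Workbench 7.0.4 and deposited raw counts, per gene and embryo, of fragments mapped uniquely to exons, without normalization or strand. All genes were fitted with edgeR 4.0.16 in R 4.3.3, using TMM normalization and the quasi-likelihood test, on the groups compared. A gene was tested with at least 15 counts in every embryo of at least 1 of these groups. Standard errors come from the estimate and its F statistic.

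Classes of carriers were written by hand from their known substrates. The members, classes and lists were chosen with earlier results of these data known. The genes named are SLC28A3, the called members with the largest change (at most 12 in each direction in each culture comparison), all called between the sexes, a list of embryo carriers, and members nearest the count limit. Others were named after their values were seen. A further part of this rule, the members with the highest level per coding length, needs transcript lengths and was not used here, nor are sequences shown. RefSeq's gene table for ARS-UCD2.0 matched all 116 members and gave neighbours and X linkage only. In it 41 members overlap another gene.

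Alternatives were edgeR's exact test, DESeq2 1.42.0, its size factors, other count limits, 1 fit over all 24 embryos, sex as a covariate, thinned counts, each sex alone, no fold limit, a block for the replicate number, and leaving out each embryo. The quasi-likelihood test was tested on simulated data in which 200 genes were changed 4-fold. It recovered 92.5% of them for in vivo derived against serum embryos (6849 genes run), 98.5% for serum-free (7033) and 90% between the media (6712). Unchanged genes were 1.6%, 0.505% and 2.7% of the calls. Between male and female embryos 97.5% were recovered and 5.34% of the calls were unchanged genes. Simulated counts were drawn independently, so no embryo stood apart as B2 and C7 did and none shared a cow or experiment. The shares do not cover such features. With totals of 3253051 to 9000447 counts, CPM values of a few units rest on few counts, and intervals were not computed for single embryos.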

Additional observations from a re-analysis of the deposited data

Results flagged for a closer look

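Within each group of 8 embryos, an embryo was listed by the gap of its CPM to the nearest other embryo, relative to the range of the group. The gap had to pass Dixon's critical value for 8 samples. With normally distributed values, chance gives this in about 1 of 20 groups. Of 105 groups examined, 35 genes in 3 conditions, 9 were listed, where about 5.25 would be.

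Serum embryo B2 stood highest in its group for SLC2A3, at 7511 CPM with the next at 3762 CPM, and for SLC34A2, at 75 CPM with the next at 34.8 CPM. Serum-free embryo C7 stood highest for SLC34A2, at 308 CPM with the next at 88.0 CPM, and for SLC35F5, at 39.3 CPM with the next at 25.8 CPM. Serum embryo B8 had 16.1 CPM of SLC7A7, and the next had 5.92 CPM.

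Among in vivo derived embryos, A4 had 11.1 CPM of SLC25A35, A2 had 4813 CPM of SLC2A3, and A9 had 25.4 CPM of SLC31A2. A7 was the lowest for SLC30A9, at 13.7 CPM with the next at 26.6 CPM.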

How the results depend on the processing

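The number of members called between in vivo derived and serum embryos was 26 and stayed between 18 and 37 under the alternatives, except for 10 with the count limit in both groups, where fewer genes are tested, and 1 in female embryos alone. Against serum-free embryos it was 3, with 6 by edgeR's exact test and 6 by DESeq2, 7 with no limit on the fold, 0 in female embryos alone (19 at an unadjusted p under 0.05, edgeR) and 1 with the replicate block. Between the media it was 17, with 8 under no count limit, 10 with the limit in both groups, 11 in male and 0 in female embryos alone (20 at an unadjusted p under 0.05, edgeR) and 1 with the replicate block. Leaving out 1 embryo gave 23 to 28, 2 to 4 and 8 to 19 members in these comparisons. Male and female embryos differed in 2 members, in 1 to 2 on leaving out an embryo, and in 0 within serum embryos alone (6 at an unadjusted p under 0.05, edgeR) and 0 within serum-free embryos alone (8). The cause of these shifts was not tested.

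The replicate numbers come from the embryo names, and the labels do not say whether they mark a shared cow or experiment. Over the members, deviations of same-numbered embryos correlated between -0.178 and 0.0678 for in vivo derived and serum embryos, -0.29 and 0.181 for serum-free and -0.157 and 0.0546 between the media. These values cannot decide whether same-numbered embryos share a cow or experiment, because neither is recorded. With a replicate block over 7 numbers, 18 members were called between in vivo derived and serum embryos. None of the called members named by rule changed direction under any of the alternatives. With counts thinned to the smallest total, 23, 3 and 18 members were called in the 3 culture comparisons.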
